A study of Mus musculus with 12 samples.

Results

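Fkbp5 and 8 other genes known to respond to glucocorticoids (Per1, Sgk1, Tsc22d3, Zbtb16, Ddit4, Klf9, Nr3c1 and Cebpd) were followed across microdissected olfactory epithelium of mice whose olfactory bulbs or macrophages had been targeted. The genes were found by matching every probe set's platform gene symbol, or an older alias of it, to these names. They are 9 of the 13628 genes with a measurable probe set. They were chosen by the signals of these same arrays in the 4 groups as well as by name, so their values are given as a description. Calls among them are counted below but are not used as a test.

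The study measured total RNA on 12 one-colour Affymetrix arrays, with 3 arrays in each of 4 groups. Mice given clodronate liposomes (Lip-C), which are meant to deplete macrophages, underwent either surgical removal of both olfactory bulbs (bulbectomy, OBX) or sham surgery. Mice given empty liposomes (Lip-O) underwent OBX or sham surgery likewise. All were male wild-type C57BL/6J mice aged 6 weeks, anaesthetised with isoflurane and given 50 µl of liposomes into the nose on 3 days and 200 µl into a tail vein, with surgery on the second of those days and tissue taken 48 h after it. The handling, anaesthesia, injections and an operation were thus common to every group, and no group of untouched mice is among these arrays. The protocols give empty liposomes by both routes and in the same volumes as clodronate liposomes, and place the sham operation on the same day as OBX. Titles call the arrays biological replicates. The labels do not tell if 1 array stands for 1 mouse, so an error describes the spread between arrays.

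Glucocorticoids, corticosterone in the mouse, are released by the adrenal gland under the control of the pituitary and act through the glucocorticoid receptor, which Nr3c1 encodes. The receptor waits in the cytoplasm in a chaperone complex, moves to the nucleus on binding hormone and switches on genes near its DNA elements. Fkbp5 encodes a co-chaperone that lowers the receptor's affinity for hormone, and since the receptor induces Fkbp5 it closes a short feedback loop. Tsc22d3 encodes GILZ, an anti-inflammatory effector of the hormone, and Sgk1 a kinase that regulates ion channels and transporters. Zbtb16 (PLZF) and Klf9 are transcription factors induced by the hormone, Per1 is a clock gene with a hormone-responsive promoter, Ddit4 (REDD1) restrains mTORC1, and Cebpd is a transcription factor of the acute phase response.

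RefSeq promoter windows on GRCm38.p6 were used for 6 of the 9 genes, 14 windows in all. Each covers 250 bases before and 50 bases after a transcript start. Windows of Nr3c1 were left out of the search, and none was at hand for Zbtb16 and Cebpd. The 4 windows below are printed because they hold the motif matches discussed here for the genes whose signals varied most in parallel. Each is written 5′ to 3′ on the gene's strand, and capitals mark, on either strand, the receptor's core motif AGAACA, the palindrome built from a pair of them, or the E-box CACGTG.
Sgk1, chr10:21993640-21993939, plus strand: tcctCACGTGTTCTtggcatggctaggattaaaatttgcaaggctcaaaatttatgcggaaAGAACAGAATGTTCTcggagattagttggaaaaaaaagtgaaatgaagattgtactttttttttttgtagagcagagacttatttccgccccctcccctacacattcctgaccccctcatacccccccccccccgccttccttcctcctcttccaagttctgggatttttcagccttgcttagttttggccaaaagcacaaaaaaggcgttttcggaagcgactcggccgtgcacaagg
Fkbp5, chr17:28486100-28486399, minus strand: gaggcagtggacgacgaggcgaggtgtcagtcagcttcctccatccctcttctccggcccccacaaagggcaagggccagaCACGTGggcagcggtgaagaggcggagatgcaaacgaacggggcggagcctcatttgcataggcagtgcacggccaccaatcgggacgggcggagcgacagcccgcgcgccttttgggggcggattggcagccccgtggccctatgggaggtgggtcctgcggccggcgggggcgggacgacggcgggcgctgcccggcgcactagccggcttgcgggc
Per1, chr11:69098699-69098998, plus strand: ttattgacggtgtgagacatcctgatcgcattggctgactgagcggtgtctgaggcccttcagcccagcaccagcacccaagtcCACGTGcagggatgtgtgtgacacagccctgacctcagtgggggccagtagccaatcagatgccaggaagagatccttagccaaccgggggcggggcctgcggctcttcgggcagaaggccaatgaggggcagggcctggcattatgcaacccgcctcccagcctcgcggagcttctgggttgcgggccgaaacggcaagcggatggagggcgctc
Tsc22d3, chrX:140600473-140600772, minus strand: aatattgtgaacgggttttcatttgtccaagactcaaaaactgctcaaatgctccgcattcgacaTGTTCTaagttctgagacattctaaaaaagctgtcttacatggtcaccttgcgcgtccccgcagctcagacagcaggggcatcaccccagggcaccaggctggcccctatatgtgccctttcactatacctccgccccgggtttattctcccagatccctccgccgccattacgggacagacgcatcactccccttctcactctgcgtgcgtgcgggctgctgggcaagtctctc

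The Sgk1 window held that palindrome, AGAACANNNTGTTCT, a canonical glucocorticoid response element, which was present in 3 of 32851 windows of all genes (0.00913%). It also held an E-box that overlaps a further AGAACA match on the other strand. The Fkbp5 and Per1 windows each held 1 E-box and no AGAACA, and this Tsc22d3 window held 1 AGAACA match. Among the windows not printed, which include others of Sgk1, Per1 and Tsc22d3, none held the palindrome or the E-box. Of them, only some Sgk1 windows held AGAACA. Across the genome, 19% of windows held AGAACA and 7.15% held the E-box. The printed windows were picked for their matches. The genome shares of the palindrome, AGAACA and the E-box thus cannot tell if such matches are more frequent here than usual. The cyclic AMP response element TGACGTCA was in none of the 14 windows and in 1.79% of all windows, while the shorter TGACG was in 5 of the 14 and in 20.8% of all windows. A match is a description of these letters, and elements farther from the start lie outside the windows.

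Signals below are the deposited probe set intensities on a linear scale, and differences are between group means of log2(signal + 16), given with the standard error (SE) from the fit to all genes. A gene with several probe sets was represented by the one with the highest mean. Of 28 probe sets for the 9 genes, 23 passed the filter on dim signals, which kept probe sets brighter than the 40th percentile of the array on 3 or more arrays, and each gene had at least 1 that passed. No conclusion is drawn from 1 gene's signal being larger than another's, because probe sets differ in brightness.

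The receptor gene Nr3c1 stayed within a narrow range on its brightest probe set. It had 1586.9, 1704.7 and 1273.1 in Lip-C OBX mice and 1341.9, 1323.7 and 1175.2 in Lip-C sham mice. It had 1397.3, 1628.8 and 1358.7 in Lip-O OBX mice and 1213.1, 1293 and 1414 in Lip-O sham mice. In each of the 4 comparisons the groups overlapped, and the differences were between -0.03 and 0.24 with an SE of 0.12. On a dimmer Nr3c1 probe set the Lip-C sham mice were lowest, with 278.6, 268.7 and 287.8, against 371.9, 385.6 and 366.9 in Lip-O sham mice, a difference of -0.41 (SE 0.12). The probe sets of Nr3c1 thus did not give the same picture in sham mice, since the brightest of them differed by -0.03 there. For OBX against sham under Lip-C, the 4 probe sets past the filter differed by 0.24, 0.25, 0.31 and 0.37. The groups did not overlap on those at 0.25 and 0.37.

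Fkbp5 was high in the 2 groups that had received exactly 1 of the 2 interventions, OBX or clodronate, and low in the group with both and the group with neither. Its signal was 593.2, 521.8 and 630.7 in Lip-C OBX mice, against 1057.4, 1004.9 and 1140.6 in Lip-C sham mice. In Lip-O OBX mice it was 1159.5, 722 and 1183.7, against 634, 563.4 and 607 in Lip-O sham mice. No array of a high group reached down to any array of a low group. The group means were 582 ± 55.3 in Lip-C OBX mice, 1068 ± 68.4 in Lip-C sham mice, 1022 ± 260 in Lip-O OBX mice and 602 ± 35.6 in Lip-O sham mice (SD, n = 3 each). The 2 high groups overlapped, and so did the 2 low groups, so that the order of the levels has only 1 clear step.

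As differences, Fkbp5 was 0.81 higher with Lip-C than with Lip-O in sham mice, a 1.78-fold ratio of mean signals. It was lower with Lip-C in OBX mice, by a difference of -0.77. OBX mice were 0.72 above sham mice under Lip-O, a ratio of 1.7, while under Lip-C the OBX difference was -0.86, a ratio of 0.545 (SE 0.165 for each difference). The OBX difference under Lip-C minus that under Lip-O, the interaction, was -1.58 (SE 0.23). A second Fkbp5 probe set showed the same 4 signs with smaller sizes, 0.30 and -0.60 for Lip-C against Lip-O in sham and in OBX mice, and 0.37 and -0.53 for OBX against sham under Lip-O and Lip-C (SE 0.22). On this second probe set the groups overlapped in every comparison but OBX against sham under Lip-C. The remaining Fkbp5 probe set did not pass the filter on dim signals.

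**Figure D1:**
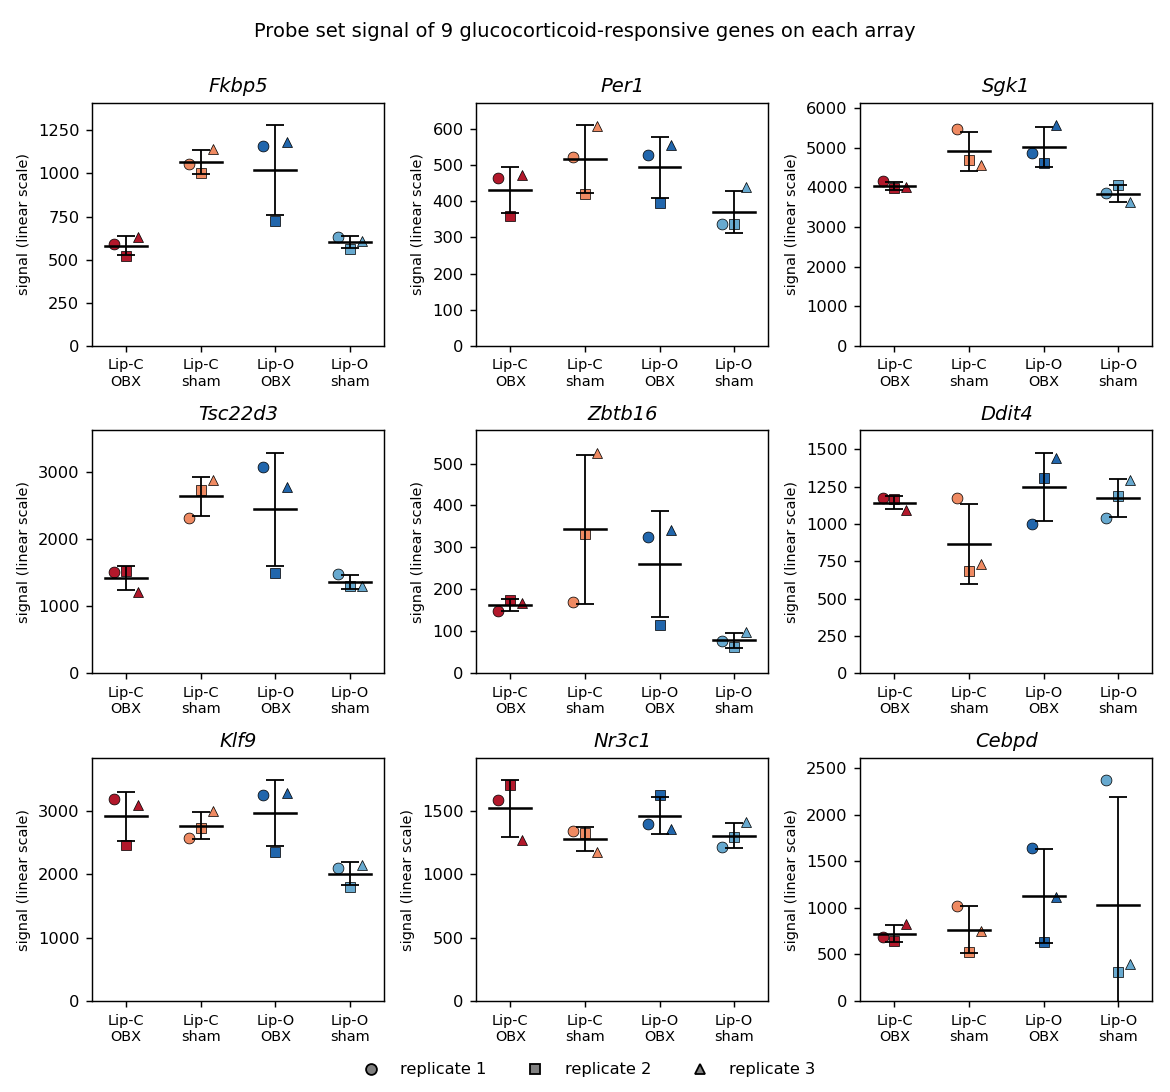
Signal (linear scale, y axis) of the representative probe set of each of the 9 genes in the 4 groups (x axis); points are single arrays with shapes for replicate numbers, long bars are means and whiskers are SD (n = 3), cut at 0 for Cebpd in Lip-O sham mice. Fkbp5, Tsc22d3 and Sgk1 have the same outline, with Lip-C sham and Lip-O OBX mice high, whereas Nr3c1 is level and Cebpd is spread by single arrays.

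Tsc22d3 followed the same outline, with larger differences than Fkbp5 in sham mice and for OBX against sham, and a smaller one for Lip-C against Lip-O in OBX mice. It had 1513.1, 1529 and 1212.3 in Lip-C OBX mice, against 2314.4, 2731.7 and 2877.1 in Lip-C sham mice. It had 3080, 1491.5 and 2776.4 in Lip-O OBX mice, against 1479.1, 1308 and 1297.1 in Lip-O sham mice. The second Lip-O OBX array lay just above the Lip-O sham arrays and inside the range of Lip-C OBX arrays, and the other two were far above both. The differences were 0.94 and -0.72 for Lip-C against Lip-O in sham and in OBX mice, 0.78 and -0.89 for OBX against sham under Lip-O and Lip-C (SE 0.23), and -1.67 (SE 0.32) for the interaction. A second Tsc22d3 probe set gave 0.72, -0.77, 0.68 and -0.81 for the same 4 comparisons, and the dimmest that passed gave 0.09, -0.39, 0.05 and -0.43. On both of these the groups overlapped for OBX against sham under Lip-O.

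Sgk1 had the smallest differences of the 3 genes with this outline and a small spread. Its signal was 4159, 3975.5 and 3996.7 in Lip-C OBX mice, against 5479.4, 4678.8 and 4576.4 in Lip-C sham mice. It was 4877.3, 4608.2 and 5575.1 in Lip-O OBX mice, against 3860.7, 4051.3 and 3619.6 in Lip-O sham mice. As for Fkbp5, no array of a high group reached a low group. The differences were 0.35 and -0.31 for Lip-C against Lip-O in sham and in OBX mice, 0.38 and -0.28 for OBX against sham under Lip-O and Lip-C (SE 0.10), and -0.66 (SE 0.14) for the interaction. In ratios of mean signals these were 1.28, 0.805, 1.31 and 0.823.

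Zbtb16 had the same 4 signs, with larger differences than Fkbp5, Tsc22d3 and Sgk1 for Lip-C against Lip-O in sham mice and for OBX against sham under Lip-O, and a larger SE than theirs. It had 148, 174.7 and 167.9 in Lip-C OBX mice, against 170.3, 332.6 and 526.1 in Lip-C sham mice. It had 324.2, 114.5 and 341.3 in Lip-O OBX mice, against 76.6, 61.8 and 97.5 in Lip-O sham mice. The Lip-O sham arrays were below all others, and 1 array in each of the 2 high groups lay at the level of the Lip-C OBX arrays or under it. The differences were 1.81 and -0.49 for Lip-C against Lip-O in sham and in OBX mice, 1.43 and -0.87 for OBX against sham under Lip-O and Lip-C (SE 0.42), and -2.30 (SE 0.59) for the interaction. The difference of -0.49 rested on single arrays, being -0.96 without Lip-O OBX replicate 2 and -0.23 without replicate 3, and that of -0.87 was -1.28 without Lip-C sham replicate 1 and -0.51 without replicate 3. Zbtb16 was the member for which the ratio of mean signals was farthest from 1, at 4.36 for Lip-C over Lip-O in sham mice. Its Lip-O sham signals lay near the level of the filter on dim signals, an array percentile of 65.3 to 79.3, so the size of this ratio is uncertain. A second Zbtb16 probe set gave 1.29, -0.32, 0.93 and -0.68 for the same 4 comparisons, and the dimmest, above the filter's percentile on 3 arrays, gave 0.15, -0.11, 0.40 and 0.15.

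Per1 had the same 4 signs as Fkbp5 with groups that overlapped. It had 464.4, 359 and 471.8 in Lip-C OBX mice, against 521.3, 420.9 and 609.1 in Lip-C sham mice. It had 528.5, 396.5 and 555.7 in Lip-O OBX mice, against 338, 336.7 and 438.8 in Lip-O sham mice. The largest difference was 0.46 for Lip-C against Lip-O in sham mice, and the others were -0.18 for Lip-C against Lip-O in OBX mice and 0.39 and -0.25 for OBX against sham under Lip-O and Lip-C (SE 0.18). Leaving out 1 array moved the -0.18 to between -0.33 (without Lip-O OBX replicate 2) and -0.06 (without Lip-C OBX replicate 2), and the -0.25 to between -0.38 (without Lip-C sham replicate 2) and -0.12 (without Lip-C OBX replicate 2).

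Klf9 had 1 low group, the Lip-O sham mice. Its signal was 3178.2, 2465 and 3080.8 in Lip-C OBX mice, 2573.7, 2721.7 and 2992.3 in Lip-C sham mice, and 3246.5, 2353.9 and 3270.8 in Lip-O OBX mice, against 2091.3, 1795.4 and 2135.6 in Lip-O sham mice. All 9 arrays of the other groups lay above the Lip-O sham arrays, and those 3 groups overlapped. The differences were 0.46 for Lip-C against Lip-O in sham mice and 0.54 for OBX against sham under Lip-O, with -0.02 and 0.07 for the other two (SE 0.15). Of the 6 Klf9 probe sets that passed the filter, 1 came closer to the outline of Fkbp5: its Lip-C OBX arrays had 1359.4, 1085.9 and 1065, below the Lip-C sham arrays at 1510.1, 1455.1 and 1527.6. That probe set differed by -0.36 for OBX against sham under Lip-C, against -0.04 to 0.07 for the other 5, so the Klf9 probe sets disagree on the group with both interventions.

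Ddit4 did not have the signs of Fkbp5, and Cebpd had all 4 of them in mean log2 values, with groups that overlapped in every comparison. Ddit4 had 1171.1, 1165 and 1091.1 in Lip-C OBX mice, 1174.1, 687.6 and 733.2 in Lip-C sham mice, 998.8, 1308.6 and 1443.9 in Lip-O OBX mice and 1043.5, 1189 and 1294.1 in Lip-O sham mice. Lip-C sham mice, among the highest for Fkbp5, held the lowest values of Ddit4, and the difference for Lip-C against Lip-O in sham mice was -0.47 (SE 0.19). Cebpd had 690.8, 648.9 and 822.9 in Lip-C OBX mice, 1022.4, 522.4 and 751.4 in Lip-C sham mice, 1640.5, 629.4 and 1111.7 in Lip-O OBX mice and 2371.9, 306.9 and 398.7 in Lip-O sham mice. A single Lip-O sham array held the highest value of Cebpd and its group mates the lowest, so the SE of a difference was 0.64. The differences of Cebpd were 0.14 and -0.54 for Lip-C against Lip-O in sham and in OBX mice, and 0.64 and -0.04 for OBX against sham under Lip-O and Lip-C. Without that array the difference for Lip-C against Lip-O in sham mice was 1.04, against 0.14 with it. That for OBX against sham under Lip-O was 1.54, against 0.64. Without Lip-O sham replicate 2 the same differences were -0.40 and 0.10. The ratio of mean signals for Lip-C over Lip-O in sham mice was 0.746, so the positive sign there is not stable. A second, dim Cebpd probe set had 41.9, 33.2 and 53.2 in Lip-C OBX mice, against 91.2, 71.4 and 89.7 in Lip-C sham mice.

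Counted over the 9 genes, 7 had a higher mean log2 value and 2 a lower one with Lip-C than with Lip-O in sham mice, whereas in OBX mice 1 was higher and 8 were lower. OBX against sham was higher for all 9 under Lip-O, and 3 were higher and 6 lower under Lip-C. The median differences over the 9 genes were 0.46 and -0.31 for Lip-C against Lip-O in sham and in OBX mice, and 0.54 and -0.25 for OBX against sham under Lip-O and Lip-C. Over all 13628 genes the same medians were 0.0032, 0.005, 0.0486 and 0.0429. The 4 comparisons share groups in pairs, so their signs are not independent of one another.

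Groups that did not overlap on the probe set representing a gene were set beside the share of all genes for which the same held. For Lip-C against Lip-O in sham mice, Fkbp5, Sgk1, Tsc22d3, Zbtb16 and Klf9, 5 of 9, lay higher without overlap, as did 16.2% of all genes. For Lip-C against Lip-O in OBX mice, Fkbp5 and Sgk1, 2 of 9, lay lower without overlap, as did 7.81% of all genes. For OBX against sham under Lip-O the 5 genes just named lay higher without overlap, as did 21.6% of all genes, and under Lip-C the 3 genes Fkbp5, Sgk1 and Tsc22d3 lay lower, as did 17.1% of all genes. The combination in which OBX lay above sham under Lip-O and below sham under Lip-C, without overlap in either, held for those 3 members and for 1.06% of all genes. The arrangement in which Lip-C lay above Lip-O in sham mice and below it in OBX mice held for Fkbp5 and Sgk1 and for 1.20% of all genes. These 2 genes had no overlap in any of the 4 comparisons in this crossed arrangement, which 57 genes in all showed (0.418%). Since the genes were chosen with these signals known, nothing further is read from the shares.

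Among the limma calls over all genes at a Benjamini-Hochberg adjusted p of 0.05, 1 member (Fkbp5) was called higher for Lip-C against Lip-O in sham mice, where 2.10% of all genes were called in either direction. None was called in OBX mice, where 0.345% of all genes were called and 3 members and 12.7% of all genes were under an unadjusted p of 0.05. For OBX against sham 5 members were called higher under Lip-O, where 10.7% of genes were called higher and 19.6% either way, and 2 (Fkbp5 and Tsc22d3) were called lower under Lip-C, where 8.86% were called lower and 19.2% either way. No gene of the 13628 was called for the interaction by limma (0%), and 2405 genes, 17.6%, were under an unadjusted p of 0.05, among them 6 of the 9 members. These counts describe the chosen genes and support nothing by themselves.

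**Figure D2:**
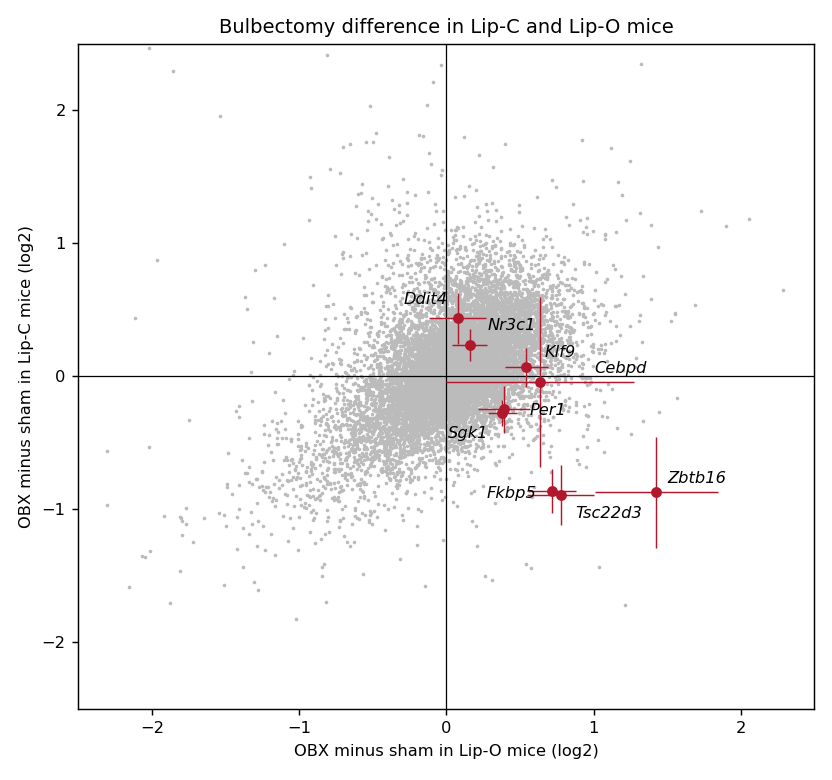
Each point is a gene placed by its OBX minus sham difference in Lip-O mice (x axis) and in Lip-C mice (y axis), in log2(signal + 16); the 9 genes are red with SE whiskers, all other genes grey, and 7 genes lie outside the axes, which end at 2.5. Fkbp5, Tsc22d3 and Zbtb16 lie at the lower right, with OBX above sham in Lip-O mice and below it in Lip-C mice, and the axes share no array.

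Array by array, the members moved together most visibly in the Lip-O OBX group. Replicates 1 and 3 of this group were high for Fkbp5, Tsc22d3, Zbtb16 and Klf9 and replicate 2 was low: the mean deviation of the 4 genes from their own means was 0.60 in each of replicates 1 and 3, and -0.28 in replicate 2. Replicate 2 was the lowest of its group for 7 of the 9 members, the exceptions being Ddit4 and Nr3c1. Without it the differences of Fkbp5 were -0.99 for Lip-C against Lip-O in OBX mice, 0.95 for OBX against sham under Lip-O and -1.81 for the interaction, and those of Tsc22d3 were -1.04, 1.10 and -1.99. Without this array, too, limma called 155 genes for the interaction rather than none. The array was singled out by the members' own values, and the sample labels give no reason to leave it out. Nothing is therefore read from that count. Single arrays also stood apart in the sham groups: Cebpd deviated by 1.58, -1.30 and -0.94 in Lip-O sham replicates 1, 2 and 3, and Zbtb16 by -0.05, 0.86 and 1.49 in Lip-C sham replicates 1, 2 and 3.

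**Figure D3:**
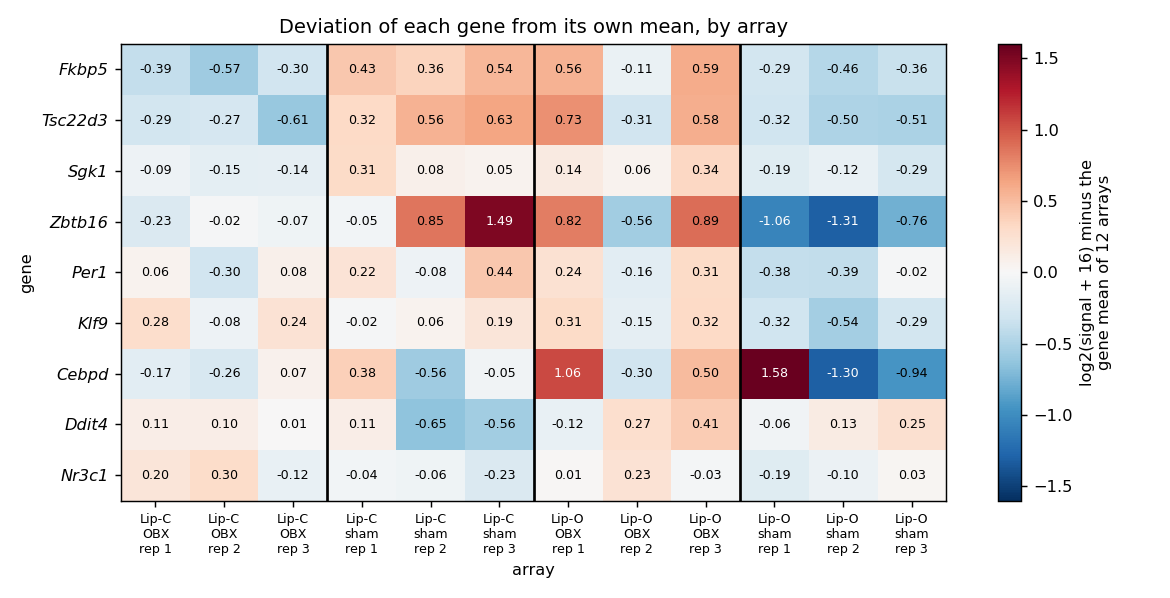
Heat map of the deviation of each gene (rows) from its own mean over 12 arrays (columns), in log2(signal + 16); red is above and blue below the mean, and black lines part the 4 groups. Lip-O OBX replicate 2 is pale or blue for Fkbp5, Tsc22d3, Zbtb16, Per1, Klf9 and Cebpd where replicates 1 and 3 are red.

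In bulk tissue, fewer cells of a type and less RNA per cell cannot be told apart, and the signals of cell type markers moved with the groups. The 8 markers of mature olfactory sensory neurons, all past the filter, summed to 60714.4 to 74819.7 in Lip-C OBX mice, against 91223.7 to 97402.3 in Lip-C sham mice, and to 41970.8 to 68992.5 in Lip-O OBX mice, against 84278.8 to 96971 in Lip-O sham mice. The 10 macrophage markers, all past the filter, summed to 12767.9 to 17483.4 in Lip-C OBX mice, against 7983.2 to 11995.9 in Lip-C sham mice, and to 13282.2 to 22355.6 in Lip-O OBX mice, against 8891.8 to 14142.7 in Lip-O sham mice. The neuron sums separated OBX from sham under both liposomes, with OBX low in each, and the macrophage sums did so under Lip-C, with OBX high, and overlapped under Lip-O. Marker by marker, for OBX against sham under Lip-O all 10 differences were positive with a median of 0.49 and 4 were called higher by limma, and under Lip-C 9 were positive with a median of 0.91 and 7 were called higher. Of all genes, 19.6% were called either way under Lip-O, 10.7% of them higher as a share of all genes, and 19.2% either way under Lip-C. For Lip-C against Lip-O the macrophage sums overlapped in sham and in OBX mice. Lyz2, the brightest of the 10, weighed most in every sum. It had 7774.3, 4387.5 and 6397.6 in Lip-C sham mice, against 7793.8, 6437.7 and 4037.6 in Lip-O sham mice. Csf1r had 1474.5, 1209.8 and 1309.8 there, against 2230.6, 2589.3 and 2328.5, without overlap. Sums that overlap thus do not mean that each marker did. In sham mice 8 of the 10 markers were negative, with a median of -0.26 and 2 called lower. In OBX mice 7 were negative and 3 positive, with a median of -0.28 and none called. Of all genes, 2.10% and 0.345% were called there.

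Markers of sustentacular cells, the supporting cells of the epithelium, and of Bowman glands also separated OBX from sham. The 6 of them past the filter summed to 43564.1 to 44925.7 in Lip-C OBX mice, against 34124.4 to 35976.9 in Lip-C sham mice, and to 47253.2 to 50739.1 in Lip-O OBX mice, against 36215.5 to 38367 in Lip-O sham mice. With OBX, limma called 3 of the 6 higher under Lip-C, where 19.2% of all genes were called either way, and 4 under Lip-O, where 19.6% were. The 7 endothelial markers summed to 1319 to 2019.1 in Lip-C OBX mice, against 1154.7 to 1458.9 in Lip-C sham mice, and to 1216.7 to 1446.6 in Lip-O OBX mice, against 1016.5 to 1293.1 in Lip-O sham mice. In the 2 comparisons with Lip-O sham mice, 5 of these 7 were positive with 1 called higher for Lip-C in sham mice, and 6 were positive with 2 called higher for OBX under Lip-O. Of all genes, 2.10% and 19.6% were called either way in these 2 comparisons, so nothing is read from the endothelial counts. Neutrophil markers, 7 past the filter, summed to 33425.6 to 56906.6 in Lip-C OBX mice, against 28586.3 to 32531.4 in Lip-O OBX mice, and none was called by limma, with 5 under an unadjusted p of 0.05. The part of these cell types in the results was not tested.

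The Lip-C sham group, 1 of the 2 with high Fkbp5, had low sums for other tissues. The 7 bone and cartilage markers past the filter summed to 2871 to 3598.1 in Lip-C sham mice, against 12893.9 to 16268.7 in Lip-O sham mice, while Lip-O OBX mice, the other group with high Fkbp5, had 6525.9 to 14871.6. The list split in sham mice, with 5 negative and 2 positive differences and 4 called lower, where 2.10% of all genes were called. Ctsk had 752.2, 1057.2 and 847.3 in Lip-C sham mice, against 4211.7, 5089 and 4516.3 in Lip-O sham mice. Chad had 324.3, 359.8 and 388.4, against 383.6, 332.4 and 320.2, with overlap. The 6 fibroblast markers summed to 19392.8 to 26038.8 in Lip-C sham mice, against 30446.8 to 55865.6 in Lip-O sham mice, and to 29339.4 to 51579.2 in Lip-O OBX mice. Skeletal muscle markers, 4 of 8 past the filter, summed to between 291.9 and 494.1 over all arrays and overlapped in each of the 4 comparisons. Muscle is a well-known site of Fkbp5, Klf15 and Pdk4 induction by the hormone. The part of tissue makeup in the differences was not tested.

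Of a wider list of 35 genes known to respond to glucocorticoids, 34 were on the array under these names and 31 passed the filter. For OBX against sham under Lip-O, 5 rose and 1 fell, 6 of 31 where 19.6% of all genes were called, and 26 of the 31 had a positive difference with a median of 0.30, against 0.0486 over all genes. The genes that rose were Pdk4, a kinase that shuts down pyruvate dehydrogenase (0.98, adjusted p = 0.031), Hif3a, a hypoxia-inducible factor subunit (0.83, adjusted p = 0.0183), Klf15, a transcription factor of amino acid and glucose metabolism (0.63, adjusted p = 0.0419), Fbxo32, the muscle atrophy ubiquitin ligase atrogin-1 (0.54, adjusted p = 0.00866), and the metallothionein Mt2 (0.39, adjusted p = 0.0441). Irs2, an adaptor of the insulin receptor, fell (-0.55, adjusted p = 0.0444). Under Lip-C the same comparison gave 1 rise, of the cell cycle inhibitor Cdkn1c (0.62, adjusted p = 0.0152), and 1 fall, of Irs2 (-0.71, adjusted p = 0.019), 2 of 31 where 19.2% of all genes were called, with 16 positive and 15 negative differences and a median of 0.013. All p-values here are limma's, with Benjamini-Hochberg adjustment over 13628 genes. Under 22 alternative settings the Lip-O calls of Irs2, Mt2 and Klf15 were kept in 7, 9 and 10, and that of Hif3a in 18, its difference being -0.02 when its probe sets were averaged. With the replicate number as a block, Klf15 (adjusted p = 0.0634) and Irs2 (adjusted p = 0.0623) did not pass under Lip-O.

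Klf15 was the gene of this list that passed for Lip-C against Lip-O in sham mice, 1 of 31 where 2.10% of all genes were called. The list thus had about as many calls there as its size would give. In that comparison 26 of 31 differences were positive with a median of 0.16. Klf15 had 884.8, 1051.6 and 1231.1 in Lip-C sham mice, against 576, 594.2 and 490.1 in Lip-O sham mice, a limma difference of 0.90 (SE 0.19, adjusted p = 0.0416). Its Lip-O OBX arrays had 1092.2, 640.5 and 908, with replicate 2 low again, and its Lip-C OBX arrays had 809.4, 985 and 758.5. Klf15 thus lay above Lip-O sham in all 3 other groups, as Klf9 did. Under 22 alternative settings, Klf15 passed for Lip-C against Lip-O in sham mice in 9, with adjusted p between 0.0261 and 0.133, and it did not pass with the replicate number as a block (adjusted p = 0.0563). Pdk4 had a larger difference of 1.14 there and did not pass (limma adjusted p = 0.0568).

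For Lip-C against Lip-O in OBX mice none of the 31 passed by limma, 6 were under an unadjusted p of 0.05, and 11 differences were positive and 20 negative with a median of -0.11. None passed for the interaction either, where 24 of 31 were negative with a median of -0.25 and 5 were under an unadjusted p of 0.05. The interaction was -0.93 for Klf15 (adjusted p = 0.134), -1.09 for Hif3a (adjusted p = 0.113) and -1.02 for Pdk4 (adjusted p = 0.21), so a difference of the OBX response between Lip-C and Lip-O mice was not shown for these genes. Dusp1, a phosphatase that the hormone induces in many cells, passed in no comparison, with differences between -0.27 and 0.05. Counts of this list depended on the setting, most of all for OBX against sham under Lip-O, where leaving out 1 array gave between 1 and 8 calls.

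**Figure D4:**
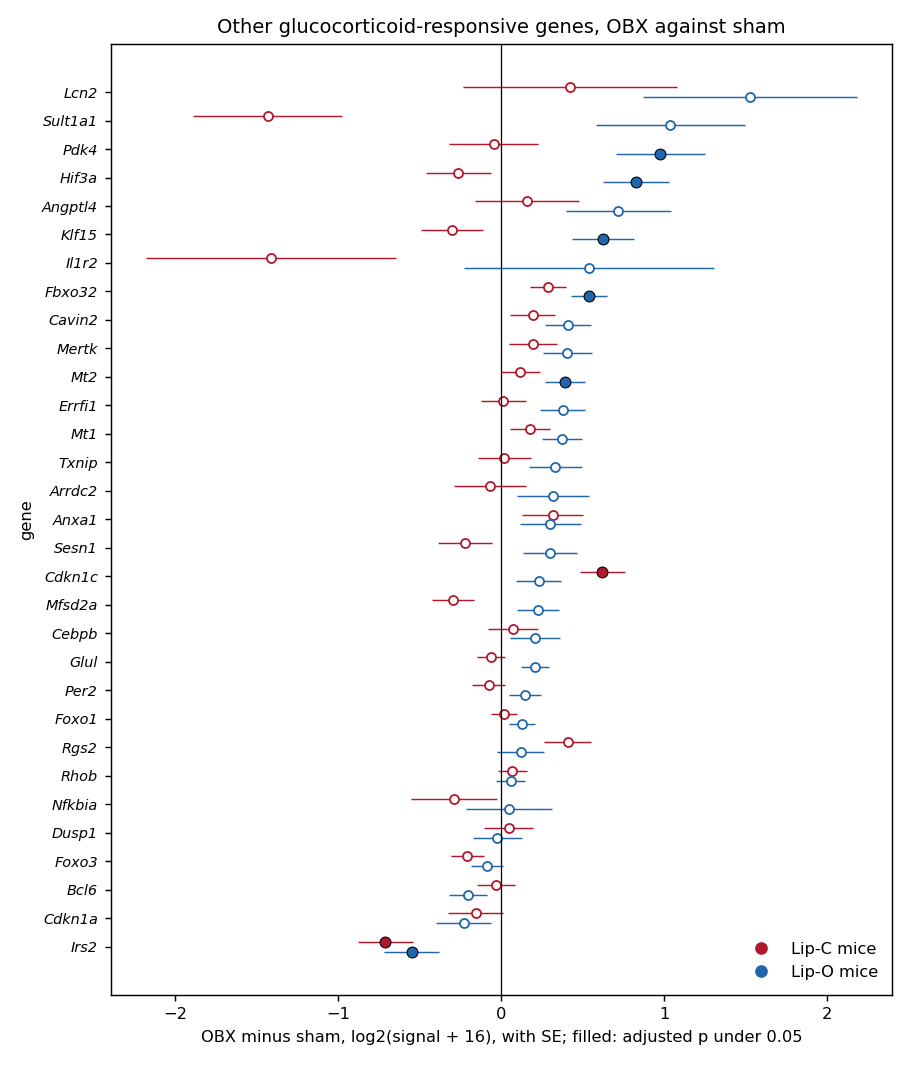
OBX minus sham difference in log2(signal + 16) with SE (x axis) for the 31 other glucocorticoid-responsive genes (rows) in Lip-C mice (red) and Lip-O mice (blue); filled points have a limma adjusted p under 0.05. Blue points lie right of 0 for 26 of 31 genes and red points for 16 of 31.

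Lip-O OBX replicate 2 was also the lowest of its group for 16 of the 31 genes. It was not alone in this. Lip-C sham replicate 2 was the lowest of its group for 18 of the 31, and Lip-O sham replicate 1 the highest for 16. The median deviation of the 31 from their own means was 0.22, -0.02 and 0.17 in Lip-O OBX replicates 1, 2 and 3, against -0.05, -0.25 and -0.23 in Lip-O sham replicates 1, 2 and 3. It was 0.04, 0.02 and 0.00 in Lip-C OBX mice, against 0.07, -0.04 and 0.01 in Lip-C sham mice. Over the wider list the medians of the Lip-C groups thus lay close together, whereas those of the Lip-O groups stood apart.

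Genes that set how a cell answers the hormone were measured as well: of 17 listed receptor partners, chaperones and enzymes, 14 were matched and 13 passed the filter. Nr3c2, the mineralocorticoid receptor, which binds corticosterone with high affinity, rose with OBX under Lip-O: it had 660.5, 723.9 and 710.8 in Lip-O OBX mice, against 388.6, 465.2 and 444.9 in Lip-O sham mice (0.67, SE 0.11, limma adjusted p = 0.00389). H6pd, which supplies the cofactor of the hormone-activating enzyme Hsd11b1, rose by 0.70 in the same comparison (limma adjusted p = 0.0189), and Abcb1a, an efflux pump that carries glucocorticoids, by 0.83 (adjusted p = 0.0254). Under Lip-C the chaperone partner Fkbp4, which favours receptor activity and opposes Fkbp5, rose with OBX, with 2280.7, 2312.7 and 2205 in Lip-C OBX mice, against 1514.7, 1434.3 and 1704.3 in Lip-C sham mice (0.55, SE 0.10, limma adjusted p = 0.0069). With the mean of its probe sets Fkbp4 did not pass (adjusted p = 0.226). Dnajb1, an HSP40 co-chaperone, rose there by 0.41 (limma adjusted p = 0.0215) and the coactivator Ncoa1 fell (-0.26, adjusted p = 0.0387). These were 3 of 13 under each liposome, where 19.6% of all genes were called under Lip-O and 19.2% under Lip-C.

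For Lip-C against Lip-O none of the 13 passed by limma, in sham or in OBX mice, with 6 and 4 under an unadjusted p of 0.05. Hsd11b1, which regenerates active hormone inside cells, had 387.8, 290.6 and 220.1 in Lip-C OBX mice, against 194.5, 167 and 120.2 in Lip-O OBX mice, without overlap, but did not pass (0.83, limma adjusted p = 0.175). None of the 13 passed for the interaction, where 6 were under an unadjusted p of 0.05.

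Per1 is also a clock gene. Tissue was taken 48 h after surgery in every group, which does not by itself give the time of day. Of 15 other clock genes, all past the filter, Nr1d1 (0.60, limma adjusted p = 0.0473) and Npas2 (0.51, adjusted p = 0.0202) rose with OBX under Lip-O, and Nr1d1 kept its call in 8 of 22 alternative settings. Under Lip-C, Bhlhe40 rose with OBX (0.84, limma adjusted p = 0.00931) and Cry2 fell (-0.58, adjusted p = 0.00649). These were 2 of 15 under each liposome, below the 19.6% and 19.2% of all genes called under Lip-O and Lip-C. For Lip-C against Lip-O none passed by limma in sham or in OBX mice, with 5 and 4 under an unadjusted p of 0.05. Per2, a core repressor of the clock, and Dbp, an output gene of it, passed in no comparison, and Dbp had 3962.3, 4043.7 and 1468.2 in Lip-O OBX mice, against 2281.4, 3548.3 and 3748.7 in Lip-O sham mice, a spread within groups larger than the gap between them.

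Other stress responses were set beside the members. Of 14 targets of ATF4, the factor of the integrated stress response that also induces Ddit4, 6 rose with Lip-C in sham mice, among them the serine synthesis gene Phgdh (0.94, limma adjusted p = 0.0137) and the amino acid transporter Slc7a5 (0.59, adjusted p = 0.0137), where 2.10% of all genes were called, and 3 of 14 rose with Lip-C in OBX mice, where 0.345% were called. Ddit4 did not go with them, its difference being -0.47 in sham mice. With OBX, 2 of the 14 rose under Lip-O and 2 fell under Lip-C, below the 19.6% and 19.2% of all genes called there. Of 14 immediate early genes, transcribed within minutes of a stimulus, 11 passed the filter. For OBX against sham 6 rose and 1 fell under Lip-C, 7 of 11 where 19.2% of all genes were called, and 1 of 11 fell under Lip-O, where 19.6% were called. With Lip-C none passed by limma in sham mice, with 4 under an unadjusted p of 0.05, and 2 of 11 rose in OBX mice, where 0.345% of all genes were called.

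The orphan receptor genes of the Nr4a family led the immediate early list in Lip-C OBX mice, 1 of the 2 groups in which Fkbp5 was low. Nr4a3 had 442.9, 259.5 and 379.1 in Lip-C OBX mice, against 84.3, 93.8 and 90.6 in Lip-C sham mice (1.80, limma adjusted p = 0.00445). It had 78.2, 94.5 and 125.9 in Lip-O OBX mice, against 129.4, 63.4 and 83.3 in Lip-O sham mice. Nr4a1 had 771.1, 660 and 731.7 in Lip-C OBX mice, against 351.8, 353.4 and 390.8 in Lip-C sham mice (0.95, limma adjusted p = 0.00343). Its interaction of 1.05 did not pass (limma adjusted p = 0.0747). Fos and Egr1 passed in no comparison.

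The genes whose signal was most like that of Fkbp5 were ranked by Pearson correlation of log2(signal + 16) over the 12 arrays, among 13627 other genes. The arrays share 4 group means, so r is a description of the outline and carries no test. Cnot6, a deadenylase of the CCR4-NOT complex, came first (r = 0.96), and Tsc22d3 was second (r = 0.94). Slc10a6, a transporter of steroid sulfates, Use1, a SNARE of transport from Golgi to endoplasmic reticulum, and Slk, a kinase of the STE20 family, followed at r = 0.91 each. Cnot6 had 3034, 2952.7 and 3287.9 in Lip-C OBX mice, against 3803.2, 3982 and 3839.4 in Lip-C sham mice, and 3958.5, 3499.2 and 3860 in Lip-O OBX mice, against 3338.1, 3108.7 and 3221.6 in Lip-O sham mice. Slc10a6 had 165.2, 56.5 and 157.8 in Lip-O OBX mice, with replicate 2 low as for Tsc22d3, against 111.1, 49.9 and 68.2 in Lip-O sham mice.

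The other members stood farther down this ranking. Sgk1 was at rank 36 (r = 0.85), Zbtb16 at rank 101 (r = 0.80) and Per1 at rank 138 (r = 0.78). Klf9 was at rank 843 (r = 0.57) and Cebpd at rank 2213 (r = 0.38). Ddit4 (r = -0.36) and Nr3c1 (r = -0.39) ran against Fkbp5, at ranks 11027 and 11279.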

How the data were processed

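The 9 genes and every gene list were chosen with earlier results of these data known. The deposited values are probe set intensities on a linear scale for 45101 probe sets. The mean of the deposited values after trimming 2% at each end is 500 on every array. The summarisation method and its version are not given in the sources used here. Array medians ran from 117.5 to 134.2, and the number of arrays, 3 in each group, limits the precision.

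Probe sets were named from the platform annotation, in which 34945 have 1 gene, 932 several and 9160 none, and only those with 1 gene were used. Values became log2(signal + 16). The filter kept 28986 probe sets, with 64 controls left out, and 13628 genes, each by its probe set of highest mean. limma 3.58.1 (R 4.3.3) fitted the 4 group means at once, with moderated variances and Benjamini-Hochberg adjustment within each comparison at 0.05. The code was tested on simulated data. An exact permutation test of 3 against 3 arrays cannot go below p = 0.1 and was not used. Groups came from the sample titles. Same-numbered arrays of all 4 groups had correlated deviations from -0.03 to 0.33, 11 of 18 over 0.1, and 9 of 12 arrays correlated best with their own number. All 3 pairs were over 0.1 for Lip-O OBX with Lip-O sham (0.13 to 0.31) and for Lip-C sham with Lip-O sham (0.1003 to 0.33), so the numbers pair the arrays in these comparisons and not throughout. Named genes of the lists are those past the threshold, up to 6 per list and comparison, plus Dusp1, Pdk4, Hsd11b1, Fkbp4, Per2, Dbp, Chac1, Trib3, Fos and Egr1. Alternatives were pseudocounts of 1 and 64, other scalings and filters, averaging all probe sets of 1 gene, unmoderated variances, the 2 groups alone, a replicate block and leaving out each array.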

Additional observations from a re-analysis of the deposited data

Results flagged for a closer look

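On their brightest probe sets, Fkbp5, Sgk1 and Tsc22d3 moved in opposite directions under the same contrast in different groups, without overlap of arrays where so named. Other probe sets did not all show this. The second Fkbp5 probe set overlapped in every comparison but OBX against sham in Lip-C mice. The dimmer Tsc22d3 probe sets past the filter overlapped for OBX against sham in Lip-O mice. The arrays described next are those of the brightest probe sets. For Fkbp5 every OBX array lay above every sham array in Lip-O mice and below every sham array in Lip-C mice, and likewise every Lip-C array lay above every Lip-O array in sham mice and below every Lip-O array in OBX mice; the effect in one setting minus that in the other was -1.58 either way. Sgk1 showed both of these reversals, with a value of -0.66. Tsc22d3 showed the first of them, with a value of -1.67, and its arrays overlapped for Lip-C against Lip-O in OBX mice. No test of these differences is read, since the genes were chosen with their signals known. The arrangement in OBX and sham mice held for 1.06% of all genes and that of Lip-C and Lip-O for 1.20%.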

How the results depend on the processing

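The 5 differences of each of the 9 genes were recomputed under the alternatives, 981 values in all. Of these, 964 moved by less than 1 residual SD of the gene. Many could not move. Unmoderated variances, the replicate block, the 2 groups alone and leaving out an array of a group not compared keep a difference unchanged. The count is thus no measure of stability. Signs changed under some alternatives for Cebpd, Nr3c1, Klf9 and Ddit4. For Cebpd, Lip-C against Lip-O in sham mice ran from -0.40 to 1.04. Averaging a gene's probe sets gave an interaction of -1.24 for Fkbp5, -1.21 for Tsc22d3 and -1.39 for Zbtb16. Median centring of each array moved the share of higher calls among all genes for OBX against sham under Lip-C to 31.9%, against 53.8% as reported, with 776 higher and 1657 lower in place of 1407 and 1208. Calls among the 31 other glucocorticoid-responsive genes were 1, 0, 6, 2 and 0 for Lip-C in sham mice, Lip-C in OBX mice, OBX under Lip-O, OBX under Lip-C and the interaction. For Lip-C in sham mice they became 3 with a pseudocount of 64 or the stricter filter, and 0 without the filter, without moderation or with the 2 groups alone. For OBX under Lip-O they became 3 with median centring, and 2 without the filter, without moderation or with the 2 groups alone. For OBX under Lip-C they became 4 with median centring. Leaving out 1 array gave 0 to 2, 0 to 0, 1 to 8, 0 to 4 and 0 to 2 calls in the same order. The cause was not tested, except that fewer arrays or more genes were fitted where so named. For Hif3a, OBX against sham in Lip-O mice, the difference turned to -0.0152 when its probe sets were averaged (limma adjusted p = 0.958), against 0.83 as reported.

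With a replicate block the calls in the list were 2, 0, 6, 3 and 0, but not of the same genes: Klf15 did not pass for Lip-C in sham mice or for OBX under Lip-O, nor Irs2 for OBX under Lip-O. Asns for Lip-C in OBX mice (limma adjusted p = 0.055) and Trib3 for OBX under Lip-C (adjusted p = 0.0706) also did not pass with the block.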
